A study of Mus musculus with 5 samples.

Results

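The nuclear lamins, the lamin B receptor and 2 high mobility group proteins whose loss is used to mark cellular senescence were followed in single-cell RNA-seq of neonatal mouse lung. The set holds 6 genes, matched by exact symbol, of 42454 measured genes: the B-type lamins Lmnb1 and Lmnb2, the A-type lamin gene Lmna, Lbr, Hmgb1 and Hmgb2. C57BL/6J pups under 12 h old were kept in room air or in more than 95% O2 for 3 days with dams exchanged between the chambers daily, and all then recovered in room air. Whole-lung cells were taken at postnatal day 7 (pnd7) and pnd60 from the air and the neonatal hyperoxia groups, giving 4 libraries that the series describes as part of an earlier dataset of the same group. Another library held cells sorted on C12FDG, a fluorogenic substrate of β-galactosidase used to collect senescent cells, from the pooled lungs of 3 hyperoxia-exposed mice at pnd7. The number of mice behind the other 4 libraries was not given in the labels, and sorted cells of the air group were not analysed here. Each condition had 1 library, so no test across mice was possible. Differences are given as log2 ratios of CPM, the counts of a gene scaled to the same total in every group of cells, with 95% intervals that cover counting error only.

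Nuclear lamins form the meshwork beneath the inner nuclear membrane. B-type lamins stay farnesylated and bound to the membrane, lamin A and lamin C are spliced from Lmna and rise in mechanically loaded tissue, and the lamin B receptor holds heterochromatin at the nuclear edge. HMGB1 and HMGB2 bend DNA in chromatin, and HMGB1 also acts as an alarm signal once released. Lower lamin b1 and HMGB2, and relocation of HMGB1, are familiar marks of senescent cells, but Lmnb1 and Hmgb2 are also known to follow the cell cycle, so dividing and non-dividing cells were held apart. RNA counts show neither the amount of these proteins nor their place in the cell.

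The bases before the gene starts are shown because several of these genes differed with cell division, and elements that many cell cycle genes carry can be read in them. RefSeq promoter entries (GRCm38.p6, the assembly of the submitters' mm10) were matched for 5 of 6 genes, all but Lmnb1, with 8 entries in all. The 250 bases before the start were read on the gene's strand. Capitals mark the cell cycle homology region TTTGAA and the CCAAT box, searched on both strands as TTTGAA or TTCAAA and as CCAAT or ATTGG. The starts shown are Hmgb2 at chr8:57511593-57511842 (plus strand), Lbr at chr1:181842402-181842651 (minus strand), Hmgb1 at chr5:149053058-149053307 (minus strand) and Lmnb2 at chr10:80918246-80918495 (minus strand).
Hmgb2: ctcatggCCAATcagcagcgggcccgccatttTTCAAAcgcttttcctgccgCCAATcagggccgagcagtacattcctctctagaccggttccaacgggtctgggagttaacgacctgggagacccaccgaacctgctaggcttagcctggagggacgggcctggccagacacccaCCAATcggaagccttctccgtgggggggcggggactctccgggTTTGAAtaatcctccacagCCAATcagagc
Lbr: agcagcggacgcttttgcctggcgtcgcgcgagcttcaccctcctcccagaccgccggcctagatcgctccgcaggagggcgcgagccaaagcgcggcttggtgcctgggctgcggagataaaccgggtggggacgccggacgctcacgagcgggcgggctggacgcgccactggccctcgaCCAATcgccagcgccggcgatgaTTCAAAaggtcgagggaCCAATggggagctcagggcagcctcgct
Hmgb1: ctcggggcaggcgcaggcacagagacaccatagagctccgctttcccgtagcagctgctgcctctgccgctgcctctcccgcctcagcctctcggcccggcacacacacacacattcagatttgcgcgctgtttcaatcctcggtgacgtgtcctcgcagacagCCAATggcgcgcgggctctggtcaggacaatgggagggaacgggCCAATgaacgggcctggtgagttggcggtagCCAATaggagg
Lmnb2: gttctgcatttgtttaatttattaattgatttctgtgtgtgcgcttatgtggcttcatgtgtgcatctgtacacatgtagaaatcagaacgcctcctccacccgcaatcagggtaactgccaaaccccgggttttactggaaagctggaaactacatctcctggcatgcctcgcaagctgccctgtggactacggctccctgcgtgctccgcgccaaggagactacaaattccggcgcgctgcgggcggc
The Hmgb2 window held 4 CCAAT boxes and TTTGAA once in each orientation, with the nearer one 30 to 25 bases before the start and a CCAAT box 73 to 69 bases before it. In Lbr, TTCAAA lay 45 to 40 bases before the start between 2 CCAAT boxes. Hmgb1 held 3 CCAAT boxes and no TTTGAA, and Lmnb2 held neither. No match of one element overlapped a match of the other. Of 32817 promoter windows of this length, 16.0% held TTTGAA on either strand, 33.8% held a CCAAT box and 5.54% held both. The 2 entries of Lmna begin inside the gene, and 1 of them held a single CCAAT box. The other entries of Lmnb2 and Hmgb1 do not begin at the gene start and held neither element. The matches describe letters only and say nothing of binding.

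After the cell filter (over 700 and under 8000 genes, under 5% mitochondrial counts) 13200 cells remained, between 493 in the sorted library and 4756 in hyperoxia at pnd60, with 7880365 to 16648251 counts a library. The median count per cell ran from 2168 in air at pnd60 to 15529 in the sorted library. At most 7 cell barcodes were shared by any pair of libraries. A cell was called dividing where 3 or more of 43 cycle genes were detected and made up at least 0.1% of its counts, and none of the 6 genes is on that list. Dividing cells made up 20.5% (95% interval 18.8 to 22.2) of cells in air and 27.4% (25.0 to 30.0) in hyperoxia at pnd7, 20.5% (17.0 to 24.3) of sorted cells, and 1.91% and 1.58% at pnd60. With every cell thinned to 1000 counts, which left out 0 to 46 cells a library, these shares were 11.8%, 19.7%, 13.8%, 1.22% and 1.30%. By EdU uptake and Ki67 staining of lungs from several mice a group, the paper reports less proliferation after hyperoxia at pnd7. The higher share in hyperoxia here goes the other way, rests on 1 library a group and is a different measure. The sorted library was mostly macrophages by marker genes: 413 of its 493 cells were alveolar macrophages (83.8%), against 3.51% and 4.41% of the cells in the unsorted pnd7 libraries, and the alveolar macrophage markers summed to 6324 CPM there against 1057 and 1030 CPM. All 14 of those markers were past 1.5-fold higher in the sorted than in either unsorted pnd7 library. Only 5 of 8 B cell, 5 of 10 T cell and 5 of 8 erythroid markers were detected in it, at summed levels of 7.23, 6.73 and 14.8 CPM. The sort sets these shares.

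Lmnb1, the B-type lamin whose loss is the best known of these senescence marks, stood at 97.4 CPM in air and 119 CPM in hyperoxia at pnd7, 51.8 CPM in the sorted cells, and 49.5 and 44.8 CPM in air and hyperoxia at pnd60. Its level was thus highest in hyperoxia at pnd7 and lowest at pnd60, with the sorted library close to the adult ones. Lmnb2, the other B-type lamin, was the scarcest of the set, with 15.8 CPM in both unsorted pnd7 libraries, 7.87 CPM in the sorted cells, and 10.4 and 12.4 CPM at pnd60. Lmna took the opposite course in the sorted cells: it was at 248 and 221 CPM in air and hyperoxia at pnd7, 790 CPM after sorting, and 218 and 211 CPM at pnd60. Counts of Lmna do not separate lamin A from lamin C. The sorted library was the one that stood apart for Lmna, and the 4 unsorted libraries lay within 211 to 248 CPM. Lbr was at 75.9 and 84.0 CPM at pnd7, 21.4 CPM in the sorted cells, and 129 and 127 CPM at pnd60, so that it was the member with its highest level in the adult lung.

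Hmgb1 was the most abundant of the set, at 1095 CPM in air and 1294 CPM in hyperoxia at pnd7, 816 CPM in the sorted cells, and 441 and 469 CPM at pnd60. Hmgb2 was likewise highest in hyperoxia at pnd7 and lowest at pnd60, with 686 and 869 CPM at pnd7, 458 CPM after sorting and 256 and 254 CPM at pnd60. Levels here come from counts of 3′ ends and carry no length correction. A near-identical Hmgb1 copy listed as a separate gene, Hmgb1-rs17, drew 2 counts in 1 library and none in the other 4. In these library sums fewer cells of a type and less RNA per cell cannot be told apart.

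**Figure D1:**
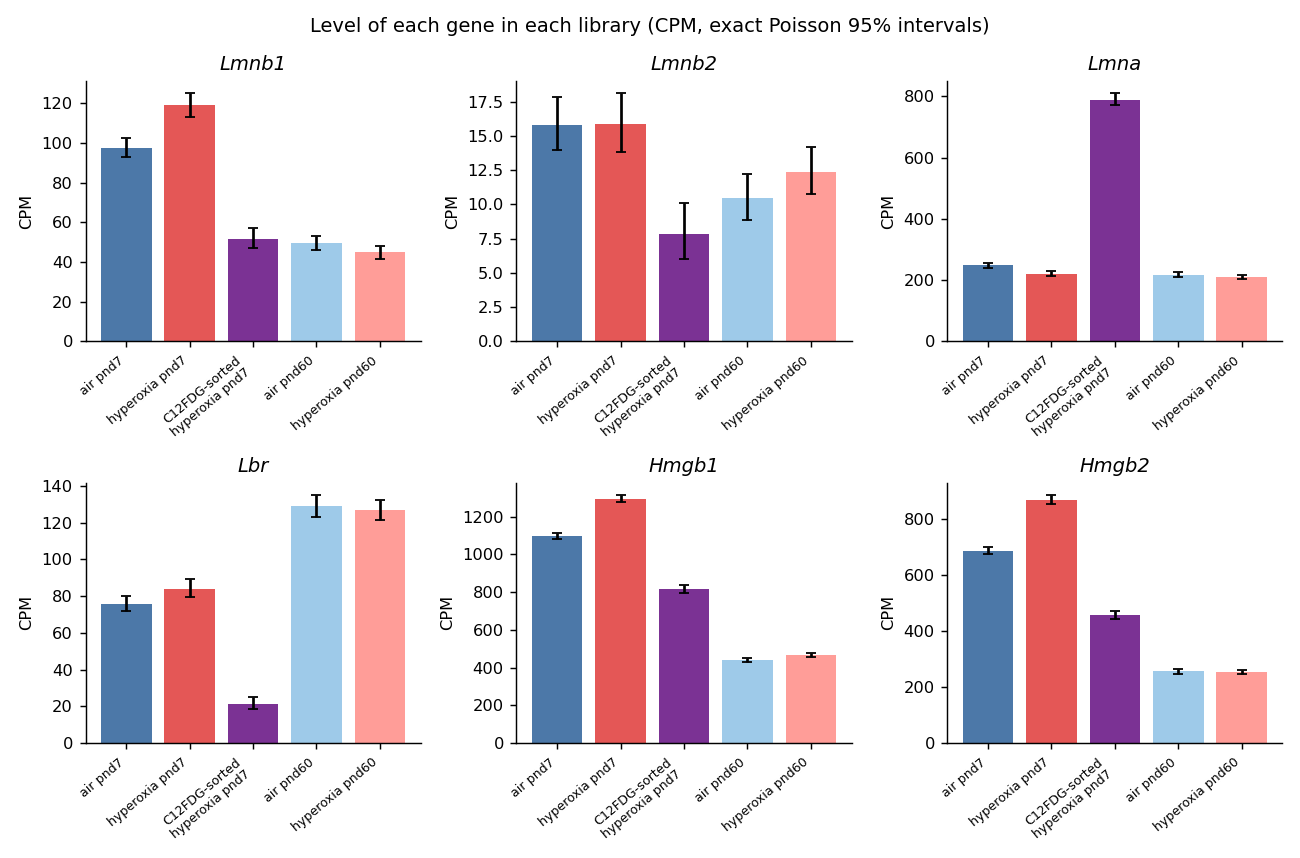
Level of each of the 6 genes (CPM, bars from 0) in each of the 5 libraries, with exact Poisson 95% intervals. Lmna stood at 790 CPM in the C12FDG-sorted library against 211 to 248 CPM in the others, and Hmgb1 and Hmgb2 were lowest at pnd60.

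Most of these genes were far higher in dividing than in non-dividing cells. Dividing cells were compared with non-dividing cells of the same class and library in 22 class-by-library groups with at least 10 dividing cells. Over those groups together, 12.6% of all gene-by-group ratios were past 1.5-fold higher in dividing cells, between 4.79% and 28.3% in a group except for 72.2% in the erythroid cells of hyperoxia at pnd7. Hmgb2 was past 1.5-fold higher in dividing cells in 22 of 22 groups, with a median of 12.1-fold, and Lmnb1 in 21 of the 21 groups with enough counts, with a median of 11.1-fold. In T cells, Hmgb2 was at 5205 and 5811 CPM in dividing against 536 and 470 CPM in non-dividing cells of air and hyperoxia at pnd7. Lmnb1 in the same T cells was at 386 and 451 CPM against 42.0 and 33.0 CPM. The dividing T cells had more counts per cell than the non-dividing ones in both libraries, with medians of 10411 and 18027 against 5289 and 5964.

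The other members were higher in dividing cells by smaller medians. Lmnb2 was past 1.5-fold higher in dividing cells in 12 of 14 groups (median 6.71-fold), and its 2 exceptions were B cells of hyperoxia and T cells of air at pnd60. Lbr was past that fold in 20 of 22 groups (median 2.95-fold), all but the alveolar type I and erythroid cells of air at pnd7. Hmgb1 was higher in 21 of 22 groups with a median of 2.85-fold, the exception being erythroid cells of air at pnd7. Lmna differed least, with 7 groups higher, 1 lower (T cells of hyperoxia at pnd7) and a median of 1.12-fold over 21 groups. Its level in dividing cells was above that of non-dividing cells in alveolar fibroblasts (536 against 235 CPM in air and 507 against 211 CPM in hyperoxia at pnd7) and in alveolar type II cells of air at pnd7 (137 against 51.6 CPM). In dividing alveolar macrophages it was lower than in non-dividing ones by -0.32 (-0.61 to -0.03) on the log2 scale in air at pnd7 and by -0.13 (-0.22 to -0.04) in the sorted library.

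A small share of the cells thus carried most of the Lmnb1 and Hmgb2 counts at pnd7. In air at pnd7, dividing cells held 20.8% of all counts but 70.0% (67.7 to 72.3) of Lmnb1 and 74.2% (73.4 to 75.0) of Hmgb2 counts. In hyperoxia at pnd7 they held 27.9% of all counts, with 77.1% (75.0 to 79.1) of Lmnb1 and 81.5% (80.8 to 82.2) of Hmgb2. At pnd60 dividing cells still held 41.4% and 35.0% of the Lmnb1 counts while making up 4.93% and 3.76% of all counts. For Lmna the share in dividing cells was nearer to that of all counts at pnd7, at 24.3% in air, 33.5% in hyperoxia and 21.7% in the sorted cells, where dividing cells held 22.6% of all counts. At pnd60 it was 8.57% (7.63 to 9.60) in air and 7.24% (6.40 to 8.15) in hyperoxia, above the 4.93% and 3.76% of all counts. Dividing alveolar macrophages gave 181 of the 275 Lmna counts of dividing cells in air at pnd60 and 109 of 252 in hyperoxia. The part of this class makeup was not tested.

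**Figure D2:**
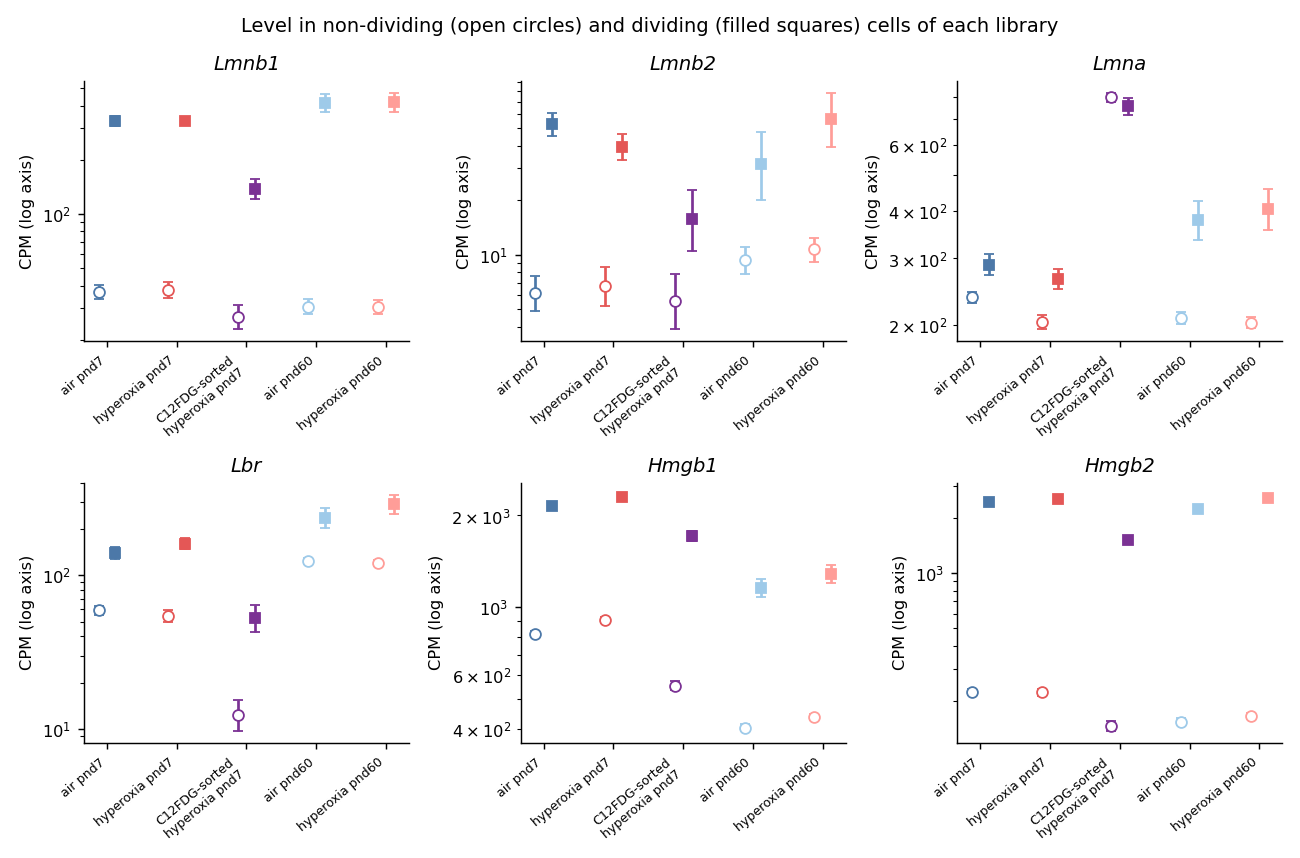
CPM (log axis) of each gene in all non-dividing cells (open circles) and all dividing cells (filled squares) of each library, with exact Poisson 95% intervals. Lmnb1 was at 26.7 to 37.8 CPM in non-dividing cells of the 5 libraries and at 137 to 417 CPM in dividing cells, with the sorted library lowest in both.

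The first question of the design was what neonatal hyperoxia did at pnd7. None of the 6 genes was past 1.5-fold in the library sums, where 1.53% of all genes were past it higher and 3.3% lower in hyperoxia. Lmnb1 was higher in hyperoxia by 0.29 (0.19 to 0.39) on the log2 scale, Hmgb2 by 0.34 (0.30 to 0.38) and Hmgb1 by 0.24 (0.21 to 0.27). Lbr differed by 0.15 (0.03 to 0.26), Lmnb2 by 0.00 (-0.26 to 0.27) and Lmna by -0.17 (-0.24 to -0.10). The median of the 6 was 0.19 and that of all genes -0.02. Direction was thus toward higher, not lower, Lmnb1 and Hmgb2 after hyperoxia.

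Values within each kind of cell are given next, since the share of dividing cells differed between the libraries. In all non-dividing cells Lmnb1 was at 36.8 CPM in air and 37.8 CPM in hyperoxia, a log2 ratio of 0.04 (-0.16 to 0.23), and in all dividing cells it was at 328 and 329 CPM, a ratio of 0.00 (-0.11 to 0.12). Hmgb2 gave 224 and 223 CPM in non-dividing cells, where the interval of the log2 ratio ran from -0.08 to 0.08, and 2452 and 2541 CPM in dividing cells, a log2 ratio of 0.05 (0.01 to 0.09). Both genes were therefore close to level in each pooled cell kind while the share of counts held by dividing cells differed between the libraries. The classes in the dividing pool also differed, with erythroid cells making up 221 of 472 dividing cells in air and 30 of 342 in hyperoxia. The part of this makeup was not tested, and dividing cells of single classes, given below, differed in both directions. Hmgb1 kept a log2 ratio of 0.15 (0.11 to 0.19) in non-dividing and 0.10 (0.05 to 0.14) in dividing cells. Lmna stayed lower in hyperoxia in non-dividing cells, by -0.22 (-0.30 to -0.14), and Lmnb2 was lower in dividing cells, by -0.42 (-0.74 to -0.10).

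**Figure D3:**
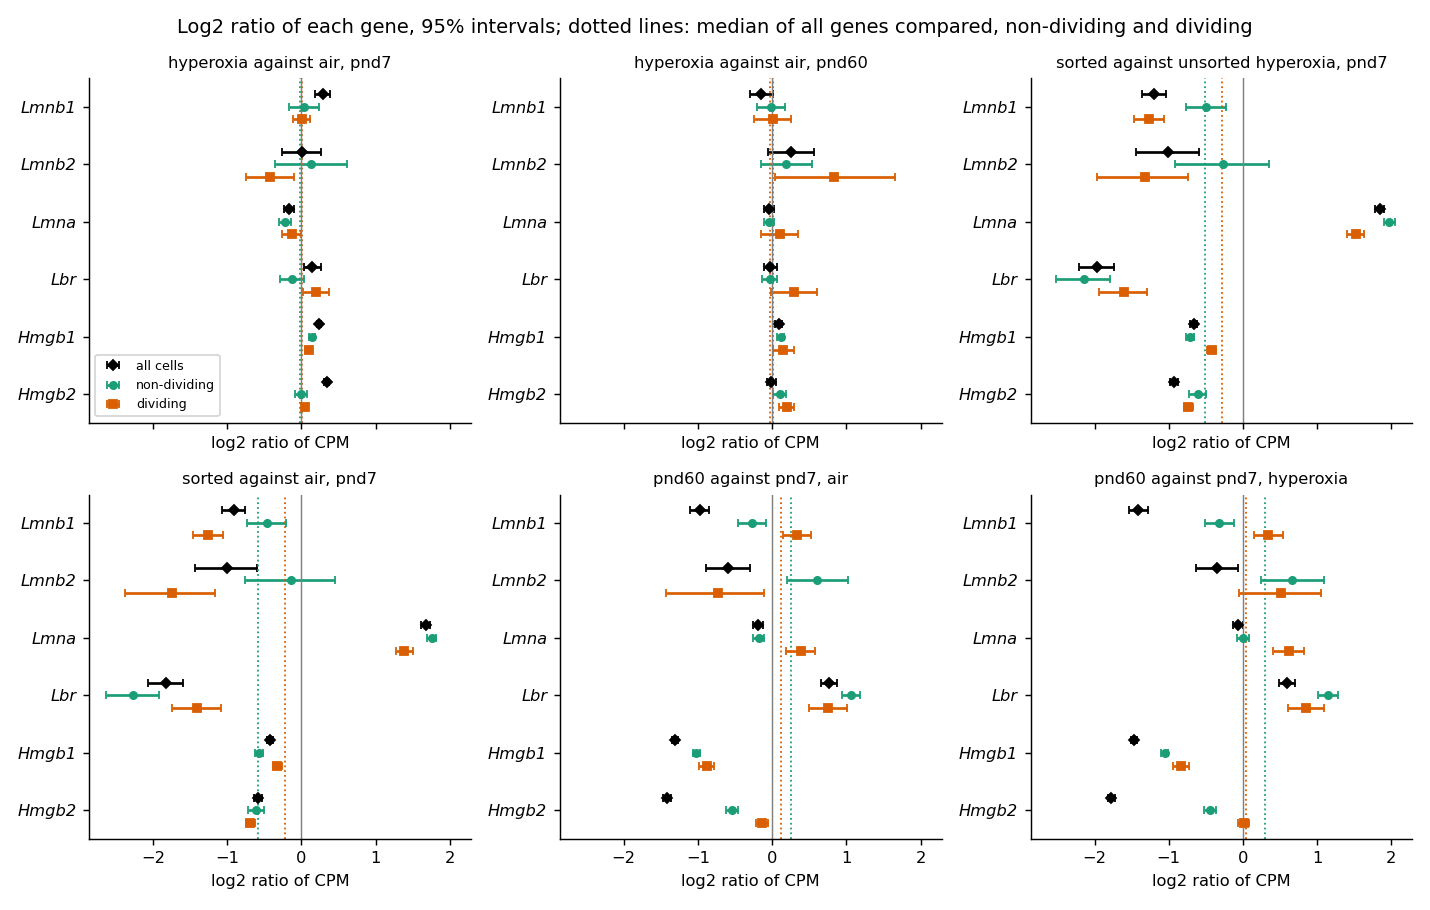
Log2 ratio of CPM for each gene in the 6 comparisons, for all cells (diamonds), non-dividing cells (circles) and dividing cells (squares), with exact binomial 95% intervals and dotted lines at the median of all genes. At pnd7 the hyperoxia-to-air ratio of Lmnb1 was 0.29 over all cells and 0.04 and 0.00 within non-dividing and dividing cells.

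Single classes of non-dividing cells went in both directions in hyperoxia at pnd7. Of 54 gene-by-class ratios of the 6 members, 4 were past 1.5-fold higher and 6 lower with an interval off 0. All 6 lower ones were in erythroid and alveolar type I cells, where depth differed between the libraries. Over all genes in the 11 classes together, 2.31% of ratios were past 1.5-fold higher and 5.36% lower, with or without an interval off 0, and the lower share reached 69.1% in the 20 erythroid cells of hyperoxia. A gene needed at least 100 counts to enter these all-gene shares, and a member needed 20 in a class. The largest cluster of each class was the same in both libraries in all 11. Lmnb1 was higher in hyperoxia in myofibroblast or smooth muscle cells, at 92.9 against 58.4 CPM (log2 ratio 0.67, 0.26 to 1.08). In alveolar type II cells, the surfactant-producing cells of the alveolus, it was at 32.5 against 20.1 CPM (0.69, 0.15 to 1.25). When only cells with no cycle gene count were used, the alveolar type II ratio turned to -0.33. In alveolar type I cells, the flat gas-exchange cells, Lmnb1 was lower in hyperoxia, at 7.26 against 24.0 CPM (-1.72, -3.48 to -0.29). This ratio rested on 5 counts in 41 hyperoxia cells and 22 counts in 171 air cells. Depth differed between these type I cells, with medians of 11648 counts in hyperoxia and 2077 in air, and its part was not tested.

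Hmgb2 also went in both directions. It was at 220 CPM in hyperoxia against 172 CPM in air in non-dividing alveolar type II cells (0.36, 0.16 to 0.55), at 230 against 165 CPM in general capillary endothelium (0.48, 0.12 to 0.85) and at 109 against 169 CPM in alveolar type I cells (-0.63, -1.05 to -0.23). The interval of Hmgb1 lay above 0 in 4 of 11 classes, none of them past 1.5-fold, and below it in 1, the erythroid cells. Its clearest differences were in myofibroblast or smooth muscle cells, at 1547 against 1204 CPM, and in alveolar fibroblasts, at 1096 against 898 CPM. Lmna was lower in general capillary endothelium, at 163 against 223 CPM (-0.45, -0.82 to -0.09), and higher in T cells, at 68.6 against 21 CPM (1.71, 0.75 to 2.72). For Lbr 1 interval of 10 left 0, in pericytes, at 48.5 against 24.6 CPM (0.98, 0.04 to 2.00). In erythroid cells Lmnb1, Lmna, Hmgb1 and Hmgb2 were lower in hyperoxia with intervals below 0, where the median of all genes was itself at -0.82. Non-dividing erythroid cells had medians of 11581.5 counts in hyperoxia and 1760 in air, and the part of this depth was not tested.

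The share of dividing cells in these classes differed beside the levels. In alveolar type II cells it was 13.1% (8.65 to 18.7) in air and 36.9% (30.8 to 43.4) in hyperoxia at pnd7. One cluster of this class, led by Spc24, H2ac8, H1f5 and Pbk, held 96 hyperoxia and 17 air cells. At a lower clustering resolution, Spc24 was instead among the leading genes of a cluster named club airway, with 110 hyperoxia and 19 air cells. The dividing share and the dividing levels of type II cells thus depend on the clustering. Depth moved with the dividing share, since the dividing alveolar type II cells of hyperoxia had a median of 4014 counts against 20244 in air. The part of depth in these levels was not tested. In dividing alveolar type II cells Hmgb2 was at 1594 CPM in hyperoxia against 1915 CPM in air (-0.27, -0.38 to -0.14) and Lmnb1 at 245 against 288 CPM (-0.23, -0.54 to 0.08). Dividing alveolar type I cells had a median of 4651 counts in hyperoxia against 2137.5 in air, and the part of this depth was not tested either. In dividing alveolar type I cells Hmgb2 was higher in hyperoxia, at 1577 against 861 CPM (0.87, 0.63 to 1.12), as was Lbr at 153 against 45.6 CPM (1.75, 0.76 to 2.90). Lmnb1 there was at 232 against 118 CPM (0.97, 0.31 to 1.67). General capillary endothelium showed the reverse for the B-type lamins, with Lmnb1 at 449 against 582 CPM (-0.37, -0.67 to -0.07) and Lmnb2 at 57.2 against 163 CPM (-1.51, -2.26 to -0.80) in its dividing cells. In dividing myofibroblast or smooth muscle cells Hmgb2 was lower in hyperoxia, at 2009 against 3143 CPM (-0.65, -0.77 to -0.52).

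At pnd60, long after the exposure, hyperoxia and air differed little. None of the 6 genes was past 1.5-fold, against 1.14% of all genes higher and 0.828% lower. Lmnb1 differed by -0.14 (-0.29 to 0.01), Lmnb2 by 0.25 (-0.06 to 0.56), and Hmgb1 by 0.09 (0.04 to 0.14). In all non-dividing cells Lmnb1 was at 30.5 CPM in air and 30.3 CPM in hyperoxia, a log2 ratio of -0.01 (-0.20 to 0.18). Hmgb1 was higher in hyperoxia with an interval above 0 in 5 of 18 non-dividing classes and below 0 in none, from 0.16 in B cells to 0.69 (0.15 to 1.25) in large vessel endothelium. Only 1 of these 18 Hmgb1 ratios was past 1.5-fold. Lmna was lower in dendritic cells, at 271 against 440 CPM (-0.70, -1.11 to -0.30), and in large vessel endothelium, at 89.1 against 190 CPM (-1.09, -2.16 to -0.05). Of 82 gene-by-class ratios of the members 2 were past 1.5-fold higher and 3 lower with an interval off 0. Over all genes in these 18 classes together 1.87% of ratios were past 1.5-fold higher in hyperoxia and 1.92% lower, with or without an interval off 0.

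The sorted cells show how the RNA of these genes stood in cells collected for β-galactosidase activity. The paper points out that M2-inducing agents can induce this activity in macrophages. The unsorted libraries came from an earlier dataset, so the sort and any difference in how the libraries were made cannot be told apart in sorted comparisons. Against unsorted hyperoxia at pnd7, Lmna was past 1.5-fold higher, where 13.4% of all genes were, and the other 5 members were past 1.5-fold lower, where 48.7% of all genes were. Lmnb1 differed by -1.20 (-1.36 to -1.04), Lmnb2 by -1.01 (-1.44 to -0.60), Lbr by -1.97 (-2.21 to -1.74), Hmgb1 by -0.67 and Hmgb2 by -0.93. Lmna differed by 1.84 (1.78 to 1.90). The median of all genes was at -0.55. When the median gene was set to 0, Lmnb1 stood at -0.66, Lmnb2 at -0.46, Lbr at -1.42, Hmgb1 at -0.12, Hmgb2 at -0.38 and Lmna at 2.39.

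Against air at pnd7, with the same sorted library, Lmna was past 1.5-fold higher (13% of all genes) and Lmnb1, Lmnb2 and Lbr lower (50.1% of all genes). Lmnb1 differed by -0.91, Lbr by -1.82 and Lmna by 1.67, and Lmnb2 by -1.01, which turned to 0.72 when cells were thinned to 1000 counts. The median of all genes was itself at -0.59, and with the median gene at 0 Lmnb1 was at -0.32 and Lmnb2 at -0.41, neither past 1.5-fold, while Lbr was at -1.23 and Lmna at 2.26. Hmgb1 and Hmgb2 differed by -0.42 and -0.58, and both turned to higher with the median gene at 0 or with no cell filter. The unsorted libraries held few of the macrophages that made up the sorted one, as the marker sums above show. The part of that makeup in these ratios was not tested in the library sums, and levels within alveolar macrophages are given next.

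In non-dividing alveolar macrophages the Lmnb1 level was 32.8 CPM in air, 18.7 CPM in hyperoxia and 25.2 CPM in sorted cells at pnd7, and 20.1 and 14.3 CPM at pnd60. The sorted cells lay between the unsorted pnd7 libraries. The log2 ratio was 0.43 (-0.46 to 1.47) against 38 cells of unsorted hyperoxia and -0.38 (-0.97 to 0.26) against 64 cells of air, and neither interval left 0. Lbr was at 3.41 to 18.6 CPM over the 5 libraries in this class, with 6.70 CPM in sorted cells, and both of its sorted intervals also held 0.

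Lmna was also higher in sorted than in unsorted pnd7 alveolar macrophages, with a smaller ratio than in the library sums. Its level was 588 and 564 CPM in unsorted air and hyperoxia, 832 CPM in sorted cells, and 841 and 847 CPM in the pnd60 libraries. The sorted pnd7 cells were therefore at the level of adult alveolar macrophages. The log2 ratio was 0.56 (0.40 to 0.73) against unsorted hyperoxia and 0.50 (0.37 to 0.63) against air, where the medians of all genes were -0.22 and -0.26. With cells thinned to 1000 counts both ratios for Lmna had intervals that held 0, at 0.53 (-0.08 to 1.21) and 0.25 (-0.20 to 0.73). Hmgb1 was at 545 CPM in sorted cells against 426 and 441 CPM (0.36, 0.17 to 0.55 against hyperoxia), and this difference turned to -0.13 after thinning to 1000 counts. Hmgb2 was lower in sorted cells, at 132 CPM against 182 CPM in hyperoxia (-0.47, -0.77 to -0.16) and 249 CPM in air (-0.92, -1.14 to -0.69). After thinning, these Hmgb2 ratios were -0.90 (-1.86 to 0.19) and -0.27 (-1.20 to 0.77), and both intervals held 0. In this class 10.9% of all genes were past 1.5-fold higher in sorted cells than in unsorted hyperoxia and 29.3% lower, and 9.58% and 30.1% against air.

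These ratios join cells of different clusters. Of the 413 sorted alveolar macrophages 369 lay in cluster 7, led by the stress genes Hmox1, Slc7a11, Mt1, Mt2 and Gdf15, with 11 of 14 alveolar macrophage markers raised and none of them among its 10 leading genes. The unsorted cells lay mostly in cluster 6, led by Chil3, Krt79 and Cidec, which held 67 air and 38 hyperoxia cells at pnd7 and no sorted cell. Cluster 7 held 379 cells in all, so it may mark the sorted library and not a cell type.

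In dividing alveolar macrophages Lmnb1 and Lbr were lower in the sorted library. Lmnb1 in them was at 229 CPM in air and 266 CPM in hyperoxia, 133 CPM in sorted cells, and 223 and 251 CPM at pnd60. The 91 sorted cells were the low group, and the other 4 libraries had 17 to 23 cells each. The log2 ratio was -1.0 (-1.38 to -0.60) against hyperoxia and -0.78 (-1.20 to -0.34) against air. Lbr followed, at 47.6 CPM in sorted cells against 129 CPM in hyperoxia (-1.44, -2.03 to -0.83) and 96.9 CPM in air (-1.02, -1.69 to -0.31). Hmgb2 was at 1566 CPM in sorted cells against 2092 CPM in hyperoxia (-0.42, -0.55 to -0.29), Hmgb1 at 1761 against 1519 CPM (0.21, 0.07 to 0.36), and Lmna at 760 against 528 CPM (0.52, 0.28 to 0.78). Here 13.3% of all genes were past 1.5-fold higher and 22.1% lower than in hyperoxia, and 13.4% and 22.7% against air, with the median of all genes at -0.11 in both.

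One cluster, 38, held dividing alveolar macrophages of all 5 libraries, which allowed a comparison inside 1 cluster. The sort and the making of the libraries cannot be told apart there either. Within it Lmnb1 was at 257 CPM (189 to 341) in air, 289 CPM (225 to 365) in hyperoxia, 138 CPM (117 to 161) in sorted cells, and 230 and 338 CPM at pnd60. The interval of the sorted cells did not reach those of the unsorted pnd7 cells. Lbr in the same cluster was at 123, 153, 59.3, 111 and 84.5 CPM in that order of libraries, and Hmgb2 at 2408, 2361, 1924, 1671 and 1605 CPM. Lmna was at 455 and 446 CPM in unsorted pnd7 cells, 807 CPM in sorted cells, and 878 and 876 CPM at pnd60. The sorted library gave 44 of these dividing cells and the others 10 to 12 each. Another 47 dividing sorted cells lay in cluster 7, with Lmnb1 at 122, Lbr at 18.0, Hmgb1 at 1121 and Hmgb2 at 654 CPM. Cluster 38 was led by Mt1, Mt2, Ccne2, Esco2 and Hmox1, and shared Slc7a11 and Gdf15 with cluster 7 among its 10 leading genes. It had 14 of 14 alveolar macrophage markers raised and none of them among those leading genes.

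**Figure D4:**
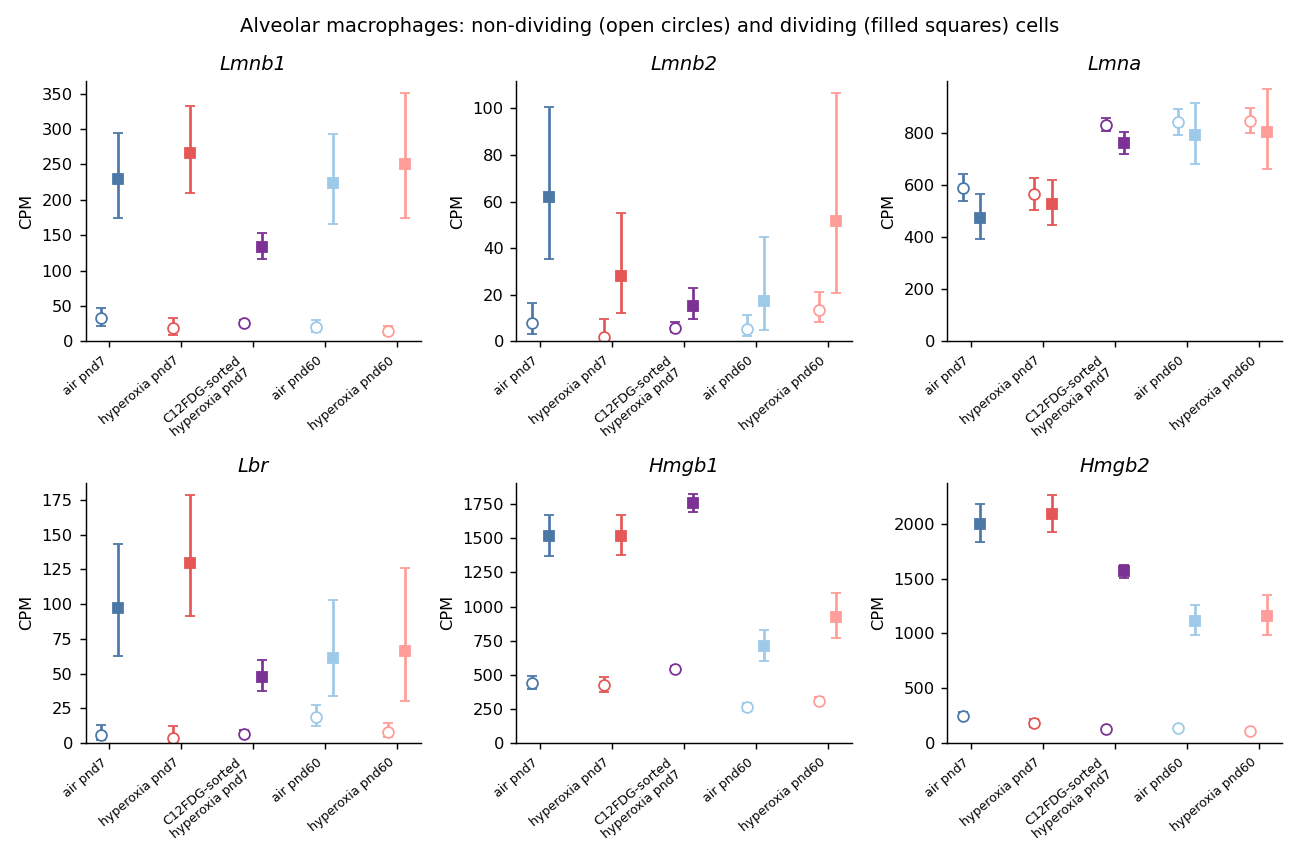
CPM of each gene in non-dividing (open circles) and dividing (filled squares) alveolar macrophages of the 5 libraries, with exact Poisson 95% intervals. Dividing sorted cells had the lowest Lmnb1, at 133 CPM against 223 to 266 CPM, while non-dividing cells lay between 14.3 and 32.8 CPM in all 5 libraries.

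The last question was how the set changed from pnd7 to pnd60. In air, Lbr was past 1.5-fold higher at pnd60 (31.4% of all genes) and Lmnb1, Lmnb2, Hmgb1 and Hmgb2 were past it lower (17% of all genes). Hmgb2 differed by -1.42 and Hmgb1 by -1.31, Lmnb1 by -0.98 and Lbr by 0.76, while Lmnb2 differed by -0.60 and turned to 0.77 after thinning to 1000 counts. In hyperoxia, Lbr was again past 1.5-fold higher (35.3% of all genes) and Lmnb1, Hmgb1 and Hmgb2 lower (17.4% of all genes), by -1.41, -1.47 and -1.77, with Lbr at 0.59. All-gene medians were 0.23 and 0.29, and with the median gene at 0 the Lbr ratios were 0.54 and 0.31. Erythroid cells made up 22.6% and 4.01% of cells at pnd7 in air and hyperoxia and 0.318% and 0.0210% at pnd60, while B cells went from 5.33% and 5.70% to 28.2% and 26.7%. All 8 B cell markers were past 1.5-fold higher at pnd60 in both exposures, and 8 and 7 of 8 erythroid markers were lower.

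Levels within cell kinds divided the members. Lmnb1 was lower at pnd60 in all non-dividing cells, by -0.27 (-0.46 to -0.08) in air and -0.32 (-0.52 to -0.12) in hyperoxia, and higher in dividing cells, by 0.34 in both. Hmgb2 in dividing cells differed by -0.14 (-0.21 to -0.06) in air and 0.01 (-0.07 to 0.09) in hyperoxia. The classes that made up the dividing cells were not the same at both ages. In dividing alveolar macrophages Hmgb2 differed by -0.84 (-1.06 to -0.62) in air and -0.85 (-1.12 to -0.60) in hyperoxia, and Lmnb1 by -0.03 and -0.08. In dividing T cells Hmgb2 differed by -0.15 and -0.04, and Lmnb1 by 1.04 and 0.65. Hmgb1 was lower in both kinds of cells, in air by -1.02 (-1.07 to -0.98) in non-dividing and -0.88 (-0.99 to -0.78) in dividing cells, and in hyperoxia by -1.06 and -0.83. Lbr was higher in non-dividing cells by 1.06 in air and 1.15 in hyperoxia. Lmnb2 was also higher in non-dividing cells, by 0.61 (0.20 to 1.02) in air and 0.66 (0.25 to 1.10) in hyperoxia. The medians of all genes there were 0.25 and 0.30. In dividing cells Lmnb2 differed by -0.73 (-1.43 to -0.10) in air and 0.52 (-0.06 to 1.06) in hyperoxia.

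In single classes of non-dividing cells, Hmgb1 was lower at pnd60 in 10 of 10 classes in air, from -1.42 in general capillary endothelium to -0.50 in B cells, and in 10 of 10 in hyperoxia, each with an interval below 0. Past 1.5-fold were 9 and 8 of them, where 17% of all gene-by-class ratios were past it lower and 28.8% higher in air, and 19% and 31% in hyperoxia. Hmgb2 was lower with an interval below 0 in 10 of 10 classes in air, of which B cells turned to 0.13 among cells with no cycle gene count, and in 9 of 10 in hyperoxia. Nonclassical monocytes in hyperoxia were the exception, at 363 against 356 CPM. Past 1.5-fold lower were 8 of 10 classes for Hmgb2 in air and 9 of 10 in hyperoxia. In general capillary endothelium Hmgb1 was at 1116 CPM in air at pnd7 and 417 CPM at pnd60, and Hmgb2 at 165 and 72.0 CPM. Lmnb1 was lower with an interval below 0 in 2 of 9 classes in air and 5 of 9 in hyperoxia, among them general capillary endothelium (47.3 to 12.8 CPM in air) and alveolar fibroblasts (28.2 to 7.24 CPM), and it was higher in 1 class in air, classical monocytes (31.0 to 76.3 CPM). The largest cluster of a class was not the same at both ages in 6 of 10 classes in air and 7 of 10 in hyperoxia, among them the alveolar type I and type II cells, B cells, general capillary endothelium and alveolar fibroblasts.

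Lbr and Lmna were higher at pnd60 in several classes. Lbr was higher at pnd60 with an interval above 0 in 5 of 9 classes in both exposures and below 0 in none. It was past 1.5-fold higher with an interval off 0 in 2 of 9 in air and 3 of 9 in hyperoxia. Over all gene-by-class ratios, 28.8% and 31% were past 1.5-fold higher, with or without an interval off 0. In alveolar fibroblasts Lbr went from 15.3 to 49.8 CPM in air (1.71, 0.94 to 2.52). Lmna in non-dividing alveolar type II cells went from 51.6 to 112 CPM in air (1.12, 0.81 to 1.43) and from 60.9 to 124 CPM in hyperoxia (1.02, 0.74 to 1.31). It was also higher at pnd60 in non-dividing alveolar macrophages of both exposures when all counts were used. With every cell thinned to the same count, both of these macrophage ratios had intervals that held 0. They were 0.12 (-0.37 to 0.64) in air and 0.52 (-0.11 to 1.22) in hyperoxia. Without thinning, the Lmna interval lay above 0 in 5 of 9 classes in air and 4 of 9 in hyperoxia. It lay below 0 in 2 classes in air and 0 in hyperoxia. Past 1.5-fold with an interval off 0 were 2 higher and 2 lower in air, and 2 and 0 in hyperoxia. Among the lower classes in air were B cells, from 51.2 to 18.3 CPM (-1.48, -2.23 to -0.72).

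Across classes the B-type and A-type members were ordered differently. Over 63 non-dividing class-by-library groups with at least 20 cells, Lmnb1 had a median of 27.1 CPM, and its highest levels were in neutrophils at pnd60, at 445 CPM in air and 458 CPM in hyperoxia. The next level, in myofibroblast or smooth muscle cells, was 92.9 CPM. The neutrophils lay in a cluster led by S100a9, S100a8, Ngp and Camp, with 9 of 9 neutrophil markers raised, and none of the 60 in hyperoxia at pnd60 was called dividing. The same cells also had the highest non-dividing Hmgb2, at 1398 and 1382 CPM, and the highest Lbr, at 461 and 485 CPM, while their Lmna was 15.9 and 17.9 CPM and Lmnb2 was not counted in either group. Hmgb2 in the next class, classical monocytes of air at pnd7, was at 708 CPM.

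Lmna was highest in macrophages and mesenchymal cells. Over the 63 groups it ran from 0 to 893 CPM with a median of 190 CPM, and the top levels were those of sorted C1q macrophages and of alveolar macrophages. Myofibroblast or smooth muscle cells had 482 to 549 CPM, adventitial fibroblasts 409 and 471 CPM, and pericytes 302 to 420 CPM. B cells had 18.3 to 51.2 CPM and T cells 21 to 78.7 CPM. Lbr was nearly the mirror image, with 118 to 232 CPM in B cells, 163 to 254 CPM in T cells and its lowest level, 3.41 CPM, in alveolar macrophages. Pearson correlations were taken over 49 class-by-library groups of at least 50 cells, with dividing and non-dividing cells together. That of Lmna with Lbr was -0.71 and that of Lmnb1 with Hmgb2 was 0.90, as a description of groups that share libraries and depth. The part of each group's dividing share in these correlations was not tested.

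**Figure D5:**
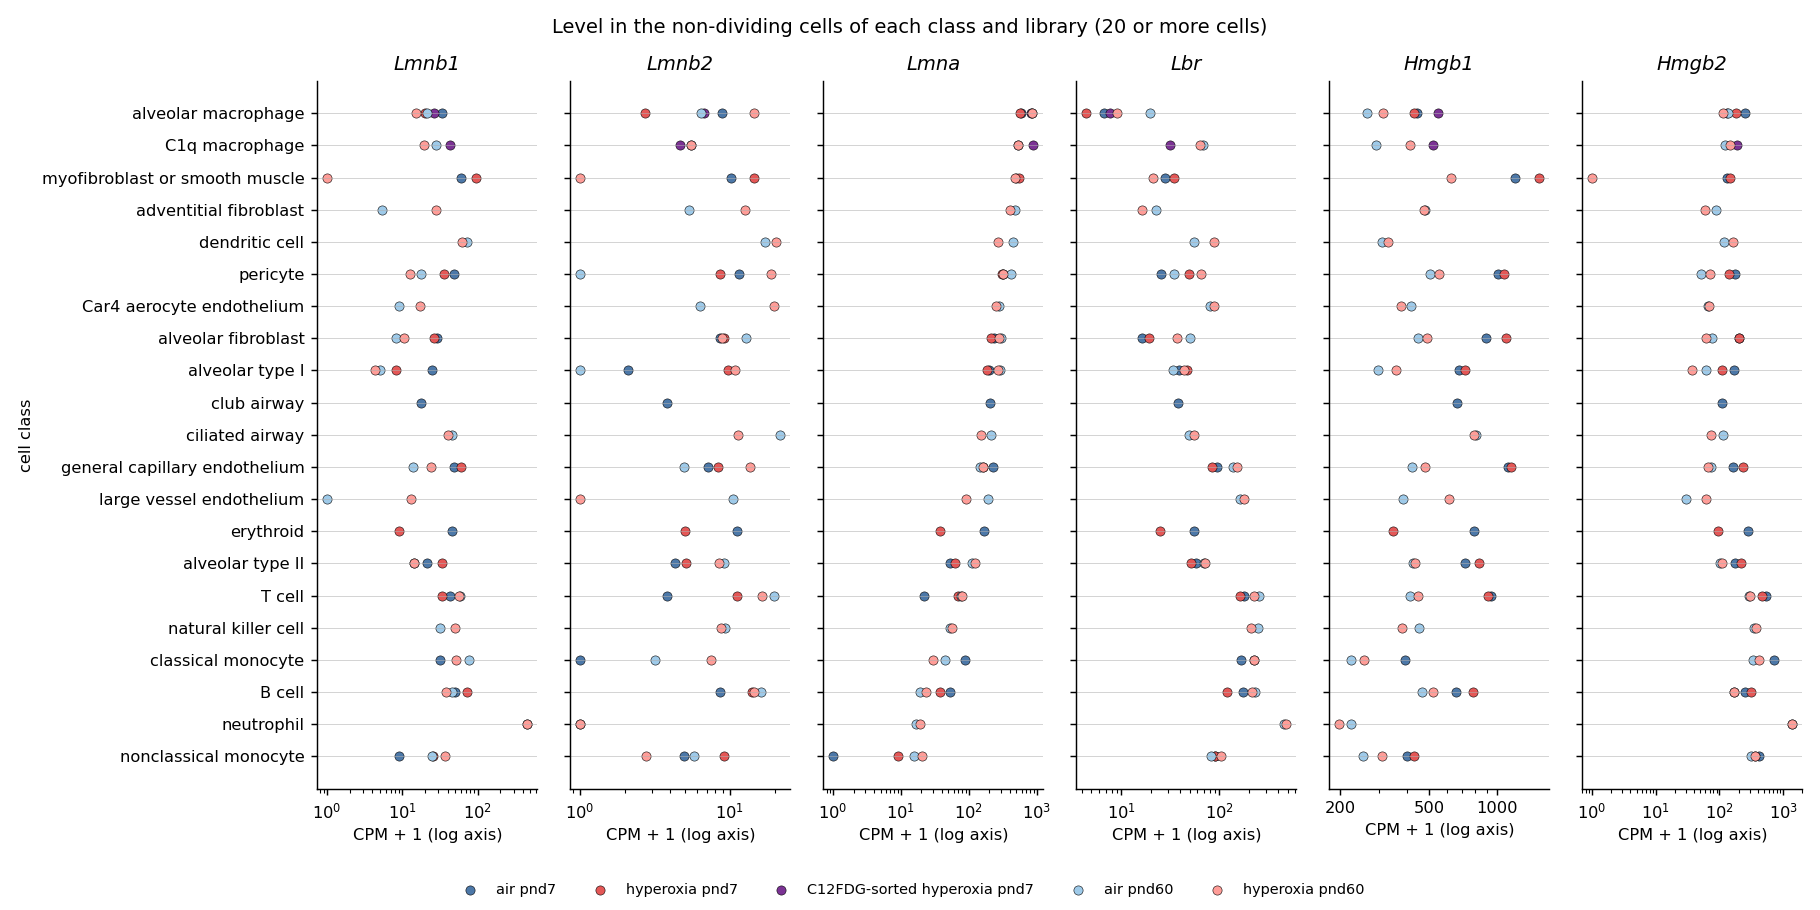
CPM plus 1 (log axis) of each gene in the non-dividing cells of each cell class, 1 point a library, with classes ordered by their median Lmna level. Lmnb1, Lbr and Hmgb2 were highest in neutrophils at pnd60, and Lmna was highest in macrophages, at 523 to 893 CPM. Unsorted C1q macrophages of pnd7 had too few non-dividing cells to be shown.

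The genes most like each member over those 49 groups, of 9026 genes compared, were ranked by the same correlation. Lmnb1 was closest to Hmgb2 (0.90), Ezh2, a histone methyltransferase (0.79), and Kif23, a cytokinesis kinesin that is on the cycle list (0.79). Hmgb2 was closest to Lmnb1, Cks2 (0.88) and Snrpg (0.85), and Lmnb2 to Rrm1 (0.73), Rbbp7 (0.73) and Knl1 (0.71). Lmna was closest to Dip2c (0.82), Ctsl, the lysosomal protease cathepsin L (0.81), and Sh3pxd2b (0.81). Lbr was closest to Ripor2 (0.82), Card6 (0.80) and Tmem71 (0.78). Hmgb1 was closest to LOC102636299 (0.92), Ndufa12 (0.92) and Erh (0.91).

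Genes listed beside the members were counted by list in each library comparison. Of 20 nuclear envelope partners 19 had enough counts, and none was past 1.5-fold between hyperoxia and air at either age. In sorted cells against unsorted hyperoxia 3 were past it higher and 6 lower, beside 13.4% and 48.7% of all genes, with a median of -0.31 beside -0.55 for all genes. Syne3, a nesprin, was the highest at 1.71 and Syne1, another nesprin, the lowest at -1.85. With age 8 were higher and 2 lower in air, beside 31.4% and 17% of all genes, and 9 and 3 in hyperoxia, beside 35.3% and 17.4%. Their medians were 0.49 and 0.55 beside 0.23 and 0.29 for all genes, and the highest was Sun2, which links lamins to the cytoskeleton, at 1.79 and 1.94. The 9 lamin processing enzymes had 0 past 1.5-fold between exposures at either age, and 0 higher and 4 lower in the sorted cells against hyperoxia, beside the same 13.4% and 48.7%, with a median of -0.48. Of these Fntb, a farnesyltransferase subunit, was lowest at -2.49.

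Chromatin relatives of the HMGB proteins showed a spread of their own. Of 10 genes 8 were compared in hyperoxia and air at pnd7, none past 1.5-fold between exposures, with Hmgn2, a nucleosome-binding protein, highest at 0.50 (0.42 to 0.57). In the sorted cells Hmgn2 was higher than in unsorted hyperoxia, at 571 against 253 CPM (1.17), and Hmgn3 was lowest, at 1.52 against 34.3 CPM (-4.49). Hmgn2 was the lowest of the list with age, at -2.16 in air and -2.20 in hyperoxia. Of 12 genes listed as receptors and partners of HMGB1, 9 were compared. In the sorted cells 6 were past 1.5-fold higher and 3 lower than in unsorted hyperoxia, beside 13.4% and 48.7% of all genes, with a median of 0.88 beside -0.55. The highest was Tlr2, a pattern recognition receptor, at 386 against 25.1 CPM (3.94), and the lowest was Hpgd, the prostaglandin-degrading enzyme, at 22.3 against 193 CPM (-3.11). Hpgd is not an HMGB1 receptor, and its tie to HMGB1 was not tested. Alveolar macrophages made up 83.8% of the sorted library and 4.41% of unsorted hyperoxia. The part of that makeup in these lists was not tested.

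The cycle genes themselves had a median of 0.40 in hyperoxia against air at pnd7, -0.90 in sorted against unsorted hyperoxia, and -1.93 and -2.52 with age in air and hyperoxia. Cdkn1a, which encodes the cell cycle inhibitor p21, was at 11.2 CPM in air, 21.3 CPM in hyperoxia and 110 CPM in sorted cells at pnd7, and at 44.7 and 38.3 CPM at pnd60. Mki67, a proliferation marker, was at 155, 183 and 150 CPM at pnd7 and 41.0 and 38.2 CPM at pnd60. The sorted library thus had the highest Cdkn1a of the 5 libraries beside a Mki67 level near that of air at pnd7. Top2a, the topoisomerase of dividing cells, was at 200, 269, 152, 63.9 and 48.7 CPM in the same order. Cdkn1a was on a list of 7 senescence reference genes, of which 6 had enough counts. In sorted cells against unsorted hyperoxia 3 were past 1.5-fold higher and 1 lower, beside 13.4% and 48.7% of all genes. Mdm2 was highest, at 296 against 51.0 CPM (2.54), and Cdkn2b lowest, at 2.03 against 23.0 CPM (-3.50). These are library sums, and the part of cell makeup in them was not tested.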

How the data were processed

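Single-cell suspensions were profiled with 10x 3′ chemistry in 5 libraries, and the authors deposited raw UMI counts per gene and cell barcode for each (matrix header software version 3.1.0). The submitters' processing notes name Cell Ranger, Seurat 3.2.1 and mm10. Counts were taken as deposited, and barcodes were kept with over 700 and under 8000 genes and under 5% mitochondrial counts, as in the study (13200 of 18236). Cells were clustered together without integration (Leiden, resolution 2, 50 components, scanpy 1.11.5, leidenalg 0.10.2), leaving the 6 members and the 43 cycle genes out, and the 53 clusters were named where possible from 24 marker lists by thresholds set after the clusters were seen. The 9 unnamed clusters (596 cells) entered library-wide sums but no cell class.

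Counts were summed per library, or per class and kind of cell, and scaled to CPM. Ratios carry exact binomial, levels exact Poisson and shares Clopper-Pearson 95% intervals, all for counting error only (scipy 1.17.1, numpy 2.4.6, pandas 2.3.3). A gene entered with at least 100 counts over both sides, a member in a class with at least 20 counts and 20 cells a side, or 10 cells for dividing cells. A gene was called past 1.5-fold. Interval and ratio code was tested on simulated data. Genes named beside the members were the 3 most correlated with each member on log2(CPM + 10), the ends of each list, and Cdkn1a, Mki67 and Top2a. The members and lists were chosen with earlier results of these data known. Several comparisons share a library and are not independent. A doublet caller marked 1, 4 and 2 cells at pnd7 and 138 and 156 at pnd60, so it did not work at pnd7, and doublets were kept. Alternatives, given at the end, were no or a wider cell filter, other scalings, thinning to 1000 counts, other cycle thresholds and other class assignments.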

Additional observations from a re-analysis of the deposited data

How the results depend on the processing

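No paired analysis was possible because there was 1 library for each group of mice. Precision was limited by cells, with as few as 20 in a class, and by the scarcity of Lmnb2. Leaving out doublets, or the erythroid cells (chosen after seeing the data), moved no member ratio, median or count by more than counting error or 1.5 times. The median of the 6 members moved as follows; the cause was not tested. For hyperoxia against air at pnd7 it was 0.38 after thinning to 1000 counts and 0.35 as mean CPM per cell, beside 0.19. For sorted cells against unsorted hyperoxia it was -0.38 with no cell filter and -0.42 with the median gene at 0, beside -0.97. For sorted cells against air it was -0.073 with no filter, -0.43 thinned and -0.16 with the median gene at 0, beside -0.75. With age it was -0.12 with no filter and -1.02 with the median gene at 0 in air, beside -0.79, and -0.34 and -1.17 in hyperoxia, beside -0.88.

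Directions that turned were these. In sorted cells against air, Hmgb1 and Hmgb2 were at 0.24 and 0.10 with no filter and 0.17 and 0.0065 with the median gene at 0, and Lmnb2 at 0.72 thinned. With age, Lmnb2 was at 0.028 with no filter and 0.77 thinned in air and at 0.10 with no filter in hyperoxia, and Lmna at 0.47 with no filter in air. In non-dividing cells of a class, Lmna in general capillary endothelium with age in air was at 0.011 with classes taken from each cell's own markers. Using cells with no cycle gene count, Lmnb1 in alveolar type II cells at pnd7 was at -0.33 and Hmgb2 in B cells with age in air at 0.13. After thinning, hyperoxia against air at pnd7 gave 0.63 for Hmgb2 in alveolar macrophages and -0.42 for Lmna in myofibroblast or smooth muscle cells, sorted against unsorted hyperoxia gave -0.13 for Hmgb1 in alveolar macrophages, and age gave -0.37 for Lmna in alveolar type I cells of air and 0.97 for Lmnb1 in B cells of hyperoxia.

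Of 252 gene-by-class ratios in non-dividing cells, 72 were past 1.5-fold with an interval off 0, against 38 of 161 using cells with no cycle gene count and 39 of 155 after thinning, where 42 and 44 of the same ratios were past it in the reported values. The Cdkn1a comparison had 10 intervals off 0 and 1 after thinning. The dividing share, in the order air, hyperoxia and sorted at pnd7 and air and hyperoxia at pnd60, was 23.2%, 30.3%, 24.7%, 2.57% and 2.06% with the cycle genes at 0.05% of counts, and 14.9%, 24.2%, 15.6% and, for air at pnd60, 1.52% at 0.2%. Any cycle gene count gave 64.8%, 67.6%, 86.8%, 27.5% and 27.1%. Thinned cells gave 11.8%, 19.7%, 13.8% and, for air at pnd60, 1.22%.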

Other observations

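Non-dividing cells with at least 1 Cdkn1a count were set beside those with none in the same class and library, as values only. For Lmnb1 10 class-by-library groups could be compared, and the log2 ratio of cells with Cdkn1a to cells without ran from -0.84 to 0.93 with a median of -0.19. The interval lay above 0 in 2 of them and below 0 in none. In sorted alveolar macrophages, Lmnb1 was at 31.5 CPM in the 132 cells with Cdkn1a and 20.3 CPM in the 190 without (0.63, 0.11 to 1.16). In alveolar type II cells of hyperoxia at pnd7 it was at 49.1 CPM in 30 cells and 25.9 CPM in 122 cells (0.93, 0.20 to 1.63). For Hmgb2 2 of 14 intervals lay above 0 and none below. No share of all genes stands beside these interval counts. Detection of a Cdkn1a count depends on depth, and after thinning to 1000 counts 4 Hmgb1, 3 Lmna, 2 Hmgb2 and 1 Lbr comparisons were left and no Lmnb1 comparison. The balance of A-type to B-type lamin also varied widely. In non-dividing alveolar macrophages the ratio of Lmna to Lmnb1 counts was 17.9 in air, 30.1 in hyperoxia and 33.0 in sorted cells at pnd7, and 41.8 and 59.4 at pnd60, against 0.571 and 0.581 in classical monocytes at pnd60.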
